A study of Mus musculus with 4 samples.

Results

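The chromatin on both sides of the HoxA and HoxD clusters was described in mouse embryonic stem cells, as 642 open regions of 208211 found in the genome. Members were chosen by position alone: a region had to lie 50 kb to 1.5 Mb outside the stretch that is empty of peaks in Hox-/- cells, on chromosome 6 for HoxA and on chromosome 2 for HoxD. Each of the 4 flanks is therefore 1.45 Mb long. The flank nearer the centromere spans chr6:50654481-52104481 at HoxA and chr2:73168830-74618830 at HoxD, and the flank nearer the telomere spans chr6:52309892-53759892 and chr2:74827661-76277661. The centromeric flank of HoxA held 196 regions, its telomeric flank 133, the centromeric flank of HoxD 146 and its telomeric flank 167. A further region, chr6:52104123-52104504, crossed the inner limit of the centromeric HoxA flank and was left out.

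Open chromatin was assayed by ATAC-seq, in which a transposase cuts and tags accessible DNA, in wt cells and in Hox-/- cells, with 2 libraries of each genotype. Both genotypes were grown in serum with leukaemia inhibitory factor, the GSK-3 inhibitor CHIR99021 and the MEK1/2 inhibitor PD0325901. The series title describes cells without any Hox function, and the sample titles of this genotype carry the letters BADC. The alleles, the parental line and whether Hox-/- is 1 clone are not given in the sources used here. Nothing says that replicates came from separate cultures, so p-values measure only the spread between these libraries, which may be technical.

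Hox genes encode homeodomain transcription factors that specify position along the body axis. Each cluster lies between large stretches of regulatory DNA, and at HoxD the centromeric and telomeric gene deserts are known for enhancers that act on the cluster in digits, in the proximal limb and in other structures. At HoxA the posterior gene Hoxa13 lies toward the telomeric flank, next to Evx1. At HoxD the order is inverted, and Hoxd13 lies toward the centromeric flank, on the side of Lnpk. In embryonic stem cells these clusters are mostly under Polycomb repression, and the flanks hold housekeeping promoters beside the tissue-specific enhancers.

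Promoters of 7 flanking genes carry several results below, so their letters are shown here first. Each line gives the 250 bases before an annotated start, from RefSeq (GRCm38.p6), 5′ to 3′ on the gene's strand. Skap2 (chr6:52012550-52012799, minus strand), Evx1 (chr6:52313248-52313497, plus) and Lnpk (chr2:74578949-74579198, minus) are the protein-coding promoters nearest their cluster in 3 of the flanks. Hibadh (chr6:52640301-52640550, minus) lay in the strongest region of all flanks in wt replicate 1. Atp5g3 (chr2:73911327-73911576, minus) stands at the far side of the HoxD centromeric desert. Chn1 (chr2:73775347-73775596, minus) and Ttc30a1 (chr2:75981968-75982217, minus) had, among promoters, the largest differences without overlap between genotypes, in opposite directions. Capitals mark matches to 5 motifs: CTCF, the octamer bound by POU factors (ATGCAAAT), Esrrb (TCAAGGTCA), KLF (GGGCGTGG) and Pbx-Hox (TGATTNAT), each on both strands.
Skap2: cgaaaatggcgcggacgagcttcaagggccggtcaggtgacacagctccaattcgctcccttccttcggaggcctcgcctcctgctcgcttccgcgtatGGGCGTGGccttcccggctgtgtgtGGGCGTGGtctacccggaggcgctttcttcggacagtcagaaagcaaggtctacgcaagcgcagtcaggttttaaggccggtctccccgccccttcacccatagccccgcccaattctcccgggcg
Evx1: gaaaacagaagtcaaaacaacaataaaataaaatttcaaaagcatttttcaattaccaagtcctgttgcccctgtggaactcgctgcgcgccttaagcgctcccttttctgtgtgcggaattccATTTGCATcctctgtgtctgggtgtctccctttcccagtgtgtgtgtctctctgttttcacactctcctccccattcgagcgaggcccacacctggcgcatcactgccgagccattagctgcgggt
Hibadh: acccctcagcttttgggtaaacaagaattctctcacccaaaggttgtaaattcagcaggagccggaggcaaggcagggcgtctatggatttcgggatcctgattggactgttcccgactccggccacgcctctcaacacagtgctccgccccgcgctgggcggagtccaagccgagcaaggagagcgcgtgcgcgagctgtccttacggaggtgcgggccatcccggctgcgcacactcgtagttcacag
Lnpk: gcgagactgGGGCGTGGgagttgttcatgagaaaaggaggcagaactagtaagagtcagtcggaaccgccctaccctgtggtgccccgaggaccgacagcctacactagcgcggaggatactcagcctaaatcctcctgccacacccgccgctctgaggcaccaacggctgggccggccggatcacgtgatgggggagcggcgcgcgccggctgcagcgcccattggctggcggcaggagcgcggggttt
Atp5g3: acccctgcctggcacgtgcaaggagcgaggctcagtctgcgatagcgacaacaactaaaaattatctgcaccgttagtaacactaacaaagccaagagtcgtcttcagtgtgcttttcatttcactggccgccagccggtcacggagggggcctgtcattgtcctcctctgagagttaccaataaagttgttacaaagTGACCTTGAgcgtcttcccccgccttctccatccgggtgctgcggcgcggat
Chn1: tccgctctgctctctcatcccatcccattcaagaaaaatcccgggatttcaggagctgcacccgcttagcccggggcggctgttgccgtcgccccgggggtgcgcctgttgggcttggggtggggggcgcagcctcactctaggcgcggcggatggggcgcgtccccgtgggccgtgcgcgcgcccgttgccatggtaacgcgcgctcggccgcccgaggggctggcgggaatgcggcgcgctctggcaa
Ttc30a1: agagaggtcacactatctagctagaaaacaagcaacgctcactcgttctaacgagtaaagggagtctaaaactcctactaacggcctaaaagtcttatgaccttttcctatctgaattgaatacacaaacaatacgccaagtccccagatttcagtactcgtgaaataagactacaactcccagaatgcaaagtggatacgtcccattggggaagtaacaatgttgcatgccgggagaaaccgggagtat

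Of these stretches, Skap2 held 2 KLF matches and Lnpk 1. Evx1 held 1 octamer match, and Atp5g3 held 1 Esrrb match, both on the strand opposite to the gene. Hibadh, Chn1 and Ttc30a1 held none of the 5 motifs. Chn1 had 31 CG dinucleotides in its 250 bases and 71.6% G and C, Skap2 24 and 64.0%, Lnpk 23 and 66.0%, Hibadh 20 and 60.8%. Evx1 had 10 and 49.6%, and Ttc30a1 9 and 43.2%. Counted over promoters of 300 bases (250 before and 50 after the start, coding and noncoding genes), a KLF match was present in 7 of 52 flanking promoters that were open in all 4 libraries, or 13.5%. The share was 9.55% of 16342 such promoters in the genome and, open or not, 5.98% of 117 flanking promoters and 5.33% of all 32851. The octamer was found in 2 of the 52, against 1.57% of all open promoters, CTCF in 2 against 3.15%, and Esrrb in 1 against 0.257%. Pbx-Hox was found in 0 of the 52, against 1.23%. A match is only a run of letters, and none of these shares was tested.

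The deposited lists held 213705 and 216795 peaks in wt and 191704 and 200214 in Hox-/-. Read depth is unknown, but a low quantile (0.1%) of the background level that each peak's fold and p imply gives a relative measure. It was 0.640 of that of wt replicate 1 in Hox-/- replicate 1 against 0.941 to 1 in the other libraries. As a check of the cell type label, all 7 embryonic stem cell markers examined had a peak within 1 kb of a gene end in every library. So did 5 of 5 fibroblast markers, 3 of 3 mesoderm markers and 2 of 3 primitive endoderm markers, so peaks at gene ends did not separate cell types here. Of the primitive endoderm markers, Gata4 had 0 peaks and Gata6 had 1 in each library. Sox17 had 3 and 3 in wt and 1 and 2 in Hox-/-.

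Most flanking regions called in wt cells were also called in Hox-/- cells. In wt replicates 1 and 2, 513 and 526 of the 642 regions were called, and in Hox-/- replicates 1 and 2, 470 and 479. Over the genome 166834 and 169205 regions were called in wt and 150179 and 159115 in Hox-/-, so fewer were called in Hox-/- there too. The flanks held 0.311% and 0.308% of all listed peaks in wt and 0.317% and 0.307% in Hox-/-. The genotypes overlap, and the difference of 0.00272 percentage points gave p = 1.0 in a two-sided exact permutation test, which cannot go below 0.33 with 2 libraries a genotype. In all 4 libraries 383 regions were called, or 59.7%, with 59% in the whole genome. A further 57 were called in 3 libraries, 46 in 1 of each genotype and 119 in a single library.

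Of 455 flanking regions called in both wt libraries, 426 were also called in at least 1 Hox-/- library, a share of 93.6% (exact 95% Clopper-Pearson interval 91.0% to 95.7%, counting error only). The genome's share was 94.6%. With the genotypes exchanged, 397 of 405 regions called in both Hox-/- libraries had a wt call, 98.0% (96.1% to 99.1%), and the genome's share was 98.1%. At gene ends, meaning within 1 kb of either end of a protein-coding gene, all 38 regions called in both libraries of a genotype were also called in the other genotype. The share kept from wt was 94.7% in the centromeric HoxA flank, 92.6% in the telomeric HoxA flank, 91.8% in the centromeric and 94.6% in the telomeric HoxD flank. Split by distance from the cluster, it was 96.8% of 63 regions at 50 to 250 kb and 87.1% of 62 at 250 to 500 kb (76.1% to 94.3%). It was 95.6% of 183 regions at 500 to 1000 kb and 92.5% of 147 beyond 1000 kb, and the intervals of all distance bands overlapped.

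**Figure D1:**
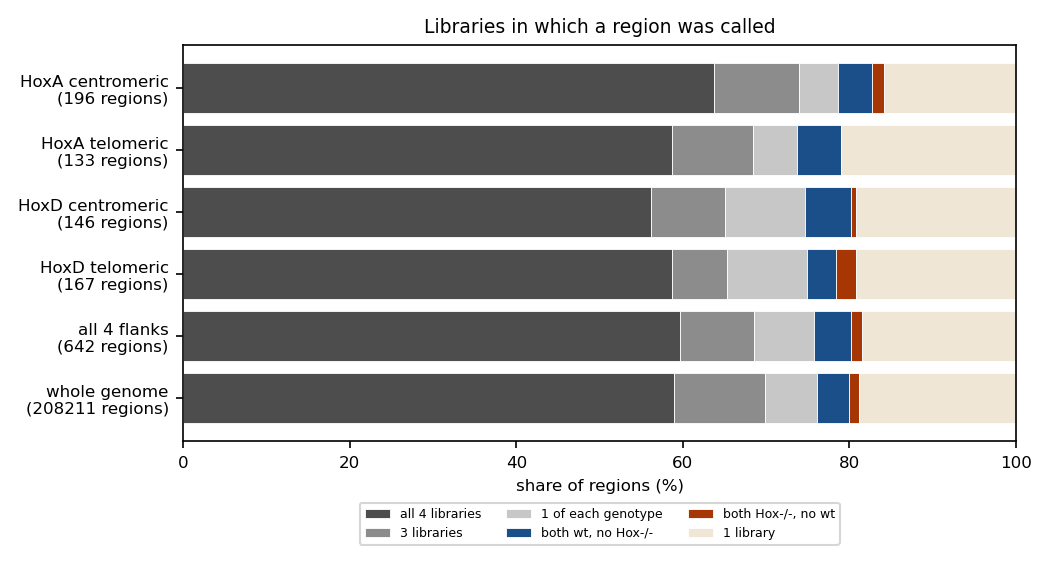
Stacked bars give the share of regions (percent) by the libraries in which they were called, for each flank, for all flanks and for the whole genome. The share called in all 4 libraries was 59.7% in the flanks and 59.0% in the genome, and those found in both wt replicates but not in Hox-/- made 4.52% and 3.83%.

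Regions found in wt replicates 1 and 2 but not in Hox-/- cells numbered 29, or 4.52% of members, against a genome share of 3.83%. Counted among regions called in both wt libraries, they were the 29 of 455 not kept, and the genome's share was 5.44%. There were 8 in each centromeric flank, 7 in the telomeric HoxA flank and 6 in the telomeric HoxD flank. They stood in the middle or lower part of the lists: when each library's regions were ordered by −log10 p, the best of them was at 50.1% and 49.6% of the wt lists, and their medians at 79.0% and 84.7%. Regions of this pattern in the whole genome had medians of 82.8% and 82.3%. None of them touched a gene end. Their median width was 302 bp, against 558 bp for members called in all 4 libraries, and over the genome these widths were 310 and 591 bp. The highest by its worse wt library was chr6:52675663-52675964, 35.4 kb from Hibadh, at 50.1% and 66.2% of the wt lists. It was followed by chr6:50838166-50838459, 184 kb from the neuropeptide gene Npvf, at 73.3% and 49.6%. The next, chr2:75438172-75438587, lay 2.12 kb from the noncoding RNA gene 9430019J16Rik, at 73.3% and 65.1%. Others were chr6:51174478-51174739 near Gm38821, chr2:73285702-73285962 inside the corepressor gene Cir1 and chr2:76128729-76129380 inside the phosphodiesterase gene Pde11a. Of the 45 regions in the gene desert between Atp5g3 and Lnpk, 4 had this pattern, and of the 46 between Mtx2 and Gm50595, 2 did.

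The opposite pattern, a call in each Hox-/- replicate but none in wt, was found at 8 members, 1.25%, with a genome share of 1.23%. Among regions called in both Hox-/- libraries they were 8 of 405, and the genome's share was 1.95%. They were 3 in the centromeric HoxA flank, 1 in the centromeric HoxD flank, 4 in the telomeric HoxD flank and 0 in the telomeric HoxA flank. These stood in the lower part of the lists, with the best at 73.9% and 73.3% of the Hox-/- lists and none at a gene end. Their medians were 84.8% and 91.6%, and those of this pattern in the whole genome 84.8% and 83.9%. The member nearest the HoxD cluster on the telomeric side, chr2:74886948-74887501, was among them, at 84.8% and 73.3% of the Hox-/- lists. It lay 109 kb from the cluster and 10.2 kb from the mitochondrial import gene Mtx2. A region still nearer the cluster, chr2:74825433-74826520, lay within the 50 kb left out of the flank and was called in all 4 libraries. Near Nfe2l3, a transcription factor gene, chr6:51390460-51390831 stood at 82.8% and 83.9%, and chr6:51421958-51422458 at 73.9% and 90.5%. The remaining named ones were chr2:75154247-75154486 in the telomeric HoxD desert, chr2:75907323-75907727 inside Agps and chr2:76220696-76221041 inside Pde11a.

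Because p-values depend on depth, strength was compared by rank. The 122787 regions called in all 4 libraries were ranked within each library by −log10 p, and a rank is given as a percent, where 1% means that only 1% of these regions ranked at or above it. The rank shift is the mean of −log2(rank) in Hox-/- minus that in wt, so that a positive shift means a higher rank in Hox-/- and a shift of 1 means a rank number smaller by a factor of 2. In what follows, each set of 4 percents is in the order wt replicate 1, wt replicate 2, Hox-/- replicate 1 and Hox-/- replicate 2.

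**Figure D2:**
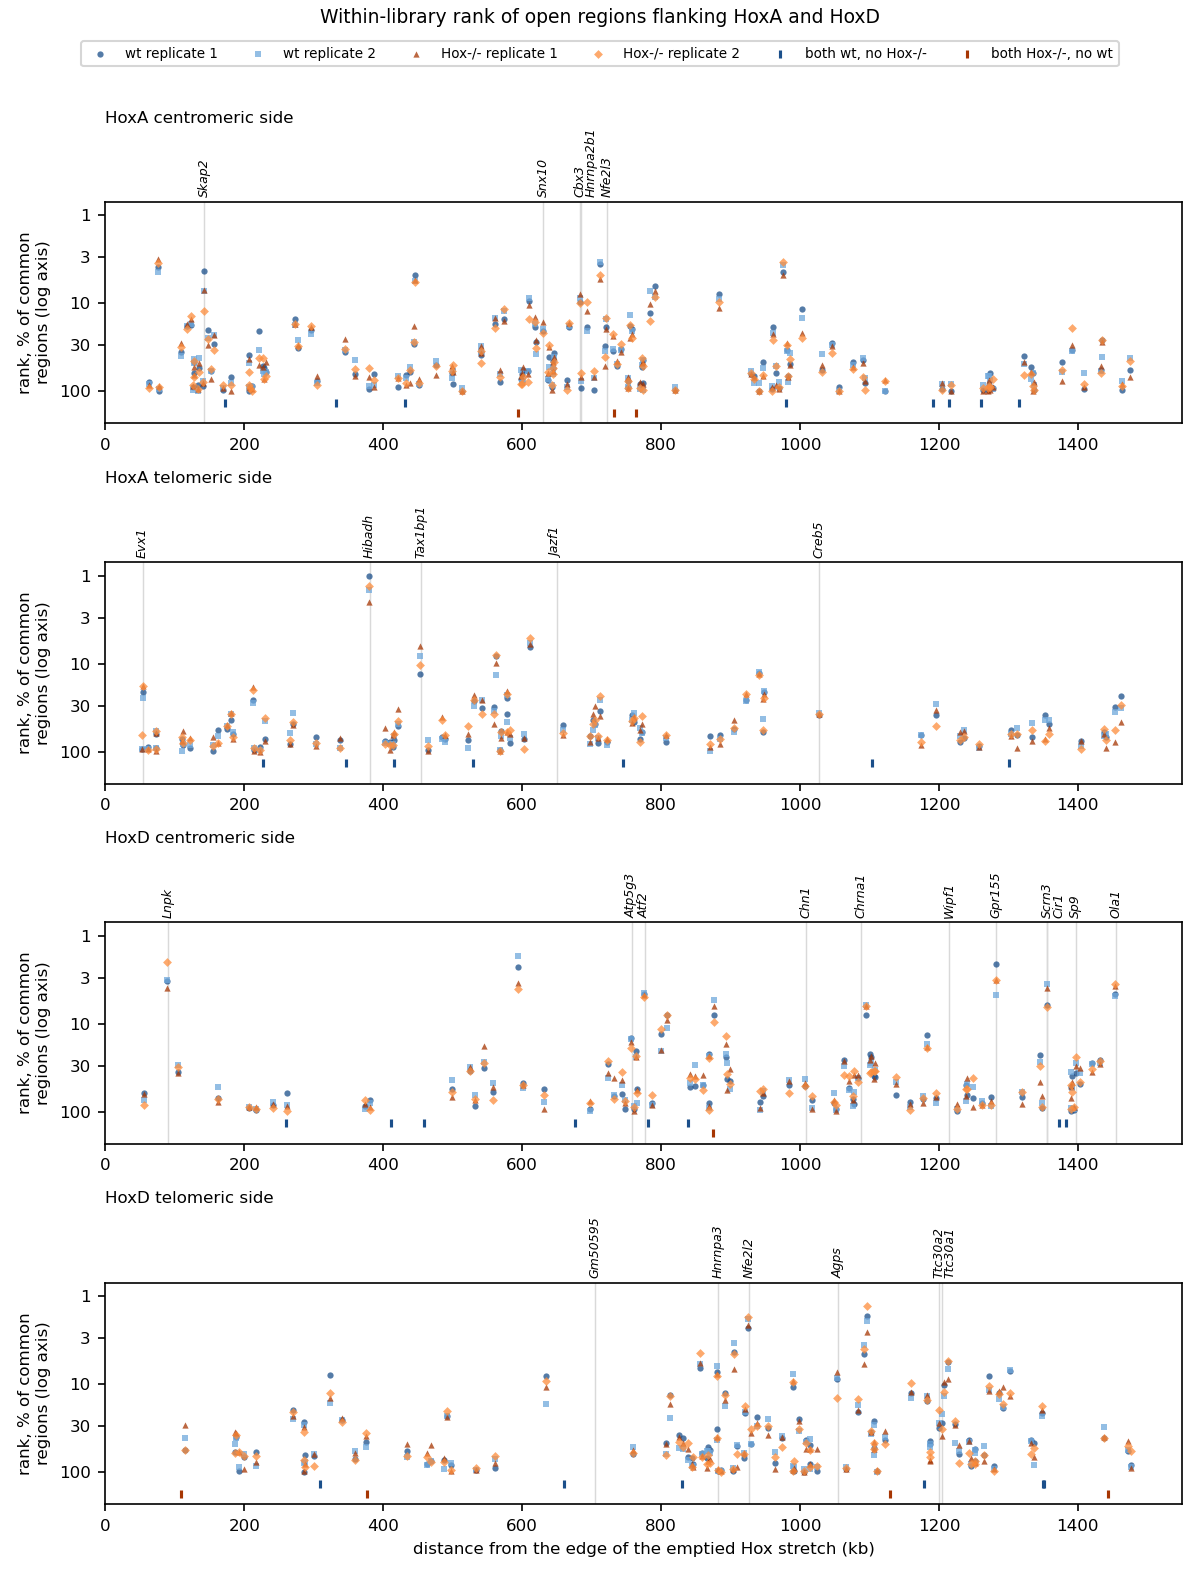
Rank of each flanking region called in all 4 libraries (percent, log axis, strongest at the top) against distance from the edge of the stretch without Hox-/- peaks (kb), with 1 point per library. Ticks under the points mark regions called in both libraries of 1 genotype only, and grey lines mark 1 annotated promoter of each named gene. Strong regions lie at promoters such as Hibadh, Lnpk and Nfe2l2 and at a few places between genes, and the inner part of both HoxD flanks holds few regions.

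Density of regions differed along the flanks. The centromeric HoxA flank held 13.5 regions per 100 kb, the telomeric HoxD flank 11.5, the centromeric HoxD flank 10.1 and the telomeric HoxA flank 9.17, against 8.48 over all autosomes. The parts of both HoxD flanks next to the cluster were sparser: from 50 to 250 kb there were 10 regions on the centromeric side and 11 on the telomeric side, where the same distance at HoxA held 31 and 28. The 602 kb between Atp5g3 and Lnpk held 45 regions, of which 20 (44.4%) were called in all 4 libraries, and the 575 kb between Mtx2 and Gm50595 held 46, of which 24 (52.2%) were, beside 59% in the genome. A stretch of 75.6 kb inside Creb5, a bZIP transcription factor gene, had no region in any library. In both Hox-/- libraries it extended to 146 kb, because 1 weak region called only in wt, chr6:53364005-53364217, lay within it. With both libraries of a genotype combined, the longest stretch without a region was 62.6 kb centromeric of HoxA in wt and in Hox-/-, and 86.6 and 88.8 kb telomeric of HoxD. Centromeric of HoxD it was 78.9 kb in wt and 85.4 kb in Hox-/-, at different places. In single libraries these lengths varied more, also within a genotype. Telomeric of HoxD they were 86.6 kb in each wt library and 88.8 and 114 kb in Hox-/- replicates 1 and 2. The stretch of 114 kb lay at another place. Centromeric of HoxD they were 106 and 78.9 kb in wt replicates 1 and 2 and 112 and 85.4 kb in Hox-/- replicates 1 and 2.

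Next to HoxA on the centromeric side, the region nearest the limit, chr6:52102794-52103003 at Halr1, a noncoding RNA gene, was called only in wt replicate 2, at 53.5% of its list. The strongest region of this flank by its worst rank lay 75.1 kb from the cluster and 65.8 kb from Skap2, at chr6:52078379-52079333. Its ranks were 3.85%, 4.37%, 3.16% and 3.46%, so both Hox-/- libraries ranked it above both wt libraries, with a shift of 0.31, which was 0.14 when regions were ranked by the authors' fold in place of −log10 p. At the promoter of Skap2, an adaptor of Src-family kinases, the ranks were 4.24%, 7.31%, 7.04% and 12.3%. Here wt replicate 1 was highest and Hox-/- replicate 2 lowest, and the genotypes overlapped (shift −0.74, SE 0.31). The second strongest region by its worst rank, chr6:51178104-51178915 between Gm38821 and Npvf, ranked at 4.45%, 3.65%, 4.74% and 3.41%, with a shift of 0.00.

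Farther out on this side, the bidirectional promoter of Hnrnpa2b1, which encodes an RNA-binding protein, and Cbx3, which encodes a heterochromatin protein, was a single region at 9.53%, 8.65%, 7.73% and 9.85%. The promoters of the sorting nexin gene Snx10 (20.7%, 19.4%, 16.2% and 21.8%) and of Nfe2l3 (18.4%, 15.0%, 19.4% and 14.5%) also overlapped between genotypes. Beyond these promoters, chr6:51458866-51460674 reached over the 3′ end of Hnrnpa2b1 and began just past the 3′ end of Nfe2l3. It ranked at 18.7% and 20.8% in wt and at 12.2% and 9.72% in Hox-/-, with no overlap and a shift of 0.86 (SE 0.24), which was 0.42 when ranked by fold. Inside Nfe2l3, chr6:51441934-51442822 ranked at 3.56% and 3.42% in wt and at 5.24% and 4.76% in Hox-/-. Both wt libraries were the stronger there, with a shift of −0.52. Located 118 kb from the microRNA gene Mir148a, chr6:51150751-51152183 ranked at 11.5% and 14.5% in wt and at 21.6% and 24.9% in Hox-/-, a shift of −0.84 (SE 0.24). The reverse was seen 8.60 kb from Snx10 at chr6:51514473-51515296, with 40.8% and 52.8% in wt, 31.6% and 29.5% in Hox-/- and a shift of 0.60 (SE 0.25).

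On the telomeric side of HoxA, the nearest protein-coding promoter is that of Evx1, an even-skipped type homeobox gene. It was a weak region, chr6:52313309-52313786, at 93.6%, 93.5%, 93.5% and 63.9%, and only Hox-/- replicate 2 stood apart, although both Hox-/- ranks were by a narrow margin the higher ones. Its shift of 0.28 was −0.00188 without that library. A stronger region at chr6:52314337-52315709 lay inside Evx1 and covered the start of the antisense gene Evx1os. It ranked at 21.2%, 24.4%, 17.8% and 17.99%, higher in both Hox-/- libraries, with a shift of 0.34. The promoter of Hibadh, an enzyme of valine breakdown, was the strongest region of this flank at 1.00%, 1.47%, 1.99% and 1.29%, and the genotypes overlapped. The next strongest, chr6:52871239-52871868 inside the zinc finger gene Jazf1, stood at 6.38%, 5.83%, 5.96% and 5.11%. At the promoter of Tax1bp1, an autophagy receptor gene, the ranks were 13.0%, 8.19%, 6.28% and 10.4%, with overlap. Inside that gene, chr6:52745147-52745667 ranked at 67.4% and 72.4% in wt and at 40.7% and 44.1% in Hox-/-. Both Hox-/- libraries were ahead there, with a shift of 0.72 (SE 0.22).

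Beyond 1000 kb on this side, around Creb5, 12 of 16 regions called in all 4 libraries ranked lower in Hox-/- and 4 higher, where 50.8% of all regions ranked higher. In 6 of them all wt ranks were above all Hox-/- ranks and in 0 the reverse, beside genome shares of 20.3% and 20.5%. The median shift of the 16 was −0.25, and −0.11 without Hox-/- replicate 1, the library with the relative background of 0.640, whose part in the result was not tested. Without each of the other libraries it was −0.28 to −0.18, and ranked by fold it was −0.38. The upstream Creb5 promoter was not among the regions that differed, at 37.8%, 36.3%, 37.7% and 37.2%. Past the gene, chr6:53713036-53713559 ranked at 30.7% and 35.4% in wt and at 76.9% and 56.4% in Hox-/-, the largest shift of the flanks at −0.998 (SE 0.25), and −1.57 when ranked by fold. Inside Creb5, chr6:53612533-53613148 ranked at 38.5% and 43.1% in wt and at 72.4% and 76.0% in Hox-/-, a shift of −0.86 (SE 0.22). In both regions each wt library was ahead of each Hox-/- library.

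At HoxD on the centromeric side, the member nearest the cluster was chr2:74612074-74612542, weak at 61.6%, 73.7%, 62.6% and 84.0%, with overlap. Just outside the flank and nearer the cluster, chr2:74620455-74620791 was called in 2 libraries. The promoter of Lnpk, which encodes an endoplasmic reticulum shaping protein, was 89.3 kb from the cluster and the flank's strongest region by its worst rank, at 3.24%, 3.20%, 3.86% and 1.96%. Hox-/- replicate 2 was highest and Hox-/- replicate 1 lowest there. In the desert between Lnpk and Atp5g3, the strongest region, second in the flank, lay 594 kb from the cluster and 161 kb from Atp5g3, at chr2:74073169-74074441. It ranked at 2.26% and 1.70% in wt and at 3.42% and 4.04% in Hox-/-. The wt libraries were ahead of both Hox-/- libraries, with a shift of −0.92 (SE 0.28). It was −0.50 when ranked by fold, and the fold over background in the authors' lists was 17.3, 17.7, 16.2 and 15.7. Each of the other 19 desert regions called in all 4 libraries ranked lower than it in every library.

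Past the desert, Atp5g3, a subunit gene of the mitochondrial ATP synthase, ranked at 14.6% and 14.7% in wt and 16.03% and 18.8% in Hox-/-. The promoter of the transcription factor gene Atf2 kept within 4.44% to 4.95% in the 4 libraries. Chn1, which encodes a GTPase-activating protein of Rac, had its upstream promoter region at 23.8% and 21.7% in wt and 16.7% and 13.6% in Hox-/-, the largest shift among promoters without overlap at 0.59 (SE 0.23). Near Chrna1, a muscle acetylcholine receptor subunit gene whose own promoter had no region in any library, chr2:73590164-73590530 lay 0.956 kb from the antisense gene Chrna1os. It ranked at 80.4% and 59.5% in wt and at 37.9% and 33.9% in Hox-/-, the largest positive shift of the flanks at 0.95 (SE 0.24). The promoter of Ola1, an ATPase gene, ranked at 4.55% and 4.87% in wt and 3.72% and 3.495% in Hox-/-. The shared promoter of Cir1 and Scrn3, and those of Gpr155 and of the zinc finger gene Sp9, overlapped between genotypes.

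On the telomeric side of HoxD, chr2:74970699-74971346 lay 193 kb from the cluster in the desert past Mtx2. It ranked at 96.1% and 87.9% in wt and at 59.2% and 58.6% in Hox-/-, a shift of 0.64 (SE 0.16), with both Hox-/- libraries ahead. The strongest regions of this flank were the promoter of Nfe2l2, the oxidative stress response factor (2.27%, 1.79%, 2.14% and 1.71%), and chr2:75873799-75874464 inside Agps, an ether lipid synthesis gene (1.68%, 1.93%, 2.57% and 1.29%). Neither separated the genotypes. Inside Pde11a, chr2:76080528-76081079 ranked at 7.10% and 6.96% in wt and 13.6% and 12.5% in Hox-/-, a shift of −0.89 (SE 0.23), which was −0.22 when ranked by fold. The neighbouring intraflagellar transport genes Ttc30a2 and Ttc30a1 differed in direction. Ttc30a2 ranked at 31.5% and 27.6% in wt and at 27.4% and 19.4% in Hox-/-. Ttc30a1 ranked at 27.5% and 21.6% in wt and at 38.4% and 32.6% in Hox-/-, a shift of −0.54 (SE 0.24).

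**Figure D3:**
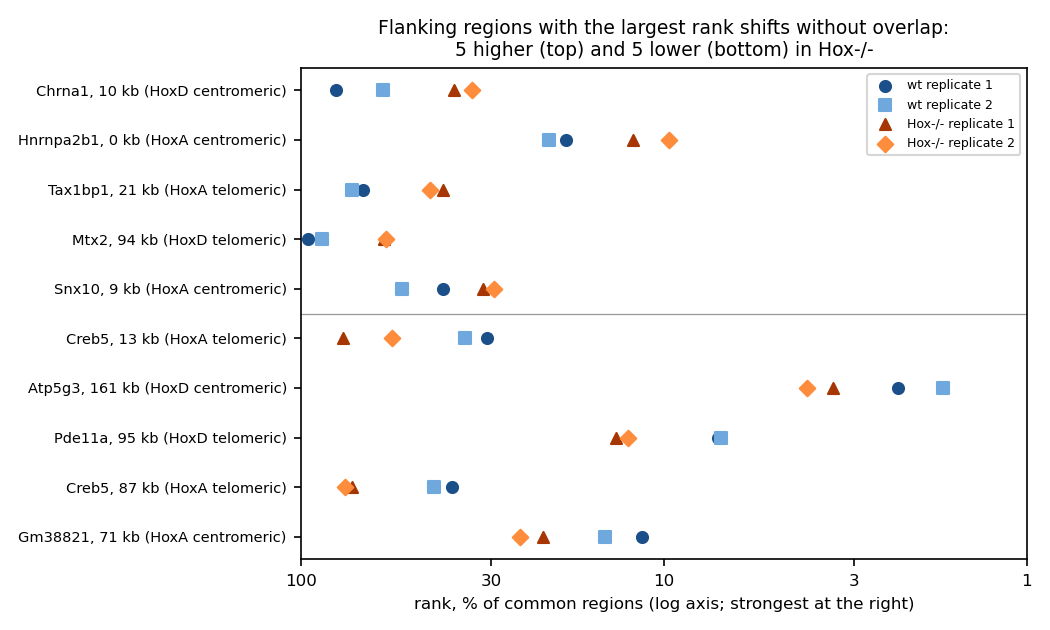
Rank of 10 flanking regions in each library (percent, log axis, strongest at the right), labelled by the nearest protein-coding gene, the distance to its end and the flank. They are the 5 largest shifts in either direction among regions whose genotypes do not overlap, from 0.95 near Chrna1 to −0.998 near Creb5.

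None of these differences passed the test across all regions. With limma on the log ranks of the 122787 regions and Benjamini-Hochberg adjustment, 0 of 383 flanking regions were below an adjusted p of 0.05, where 0.0391% of all regions were, 0.0277% higher and 0.0114% lower in Hox-/-. The lowest adjusted p among the members in limma was 0.186, at chr2:74970699-74971346, and the 10 regions with the largest shifts without overlap, 5 in each direction, ranged from there to 0.407. At an unadjusted limma p under 0.05 there were 36 members, 17 higher and 19 lower, or 9.40%, against 10.4% of all regions. In 77 members both Hox-/- ranks were above both wt ranks, or 20.1%, with a genome share of 20.5%. In 79, or 20.6%, they were below, with a genome share of 20.3%. A shift of at least 0.5 in size was seen in 27 of 383 members (7.05%), 11 higher and 16 lower, and in 8.67% of all regions. Each of these shares was close to that of the genome.

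**Figure D4:**
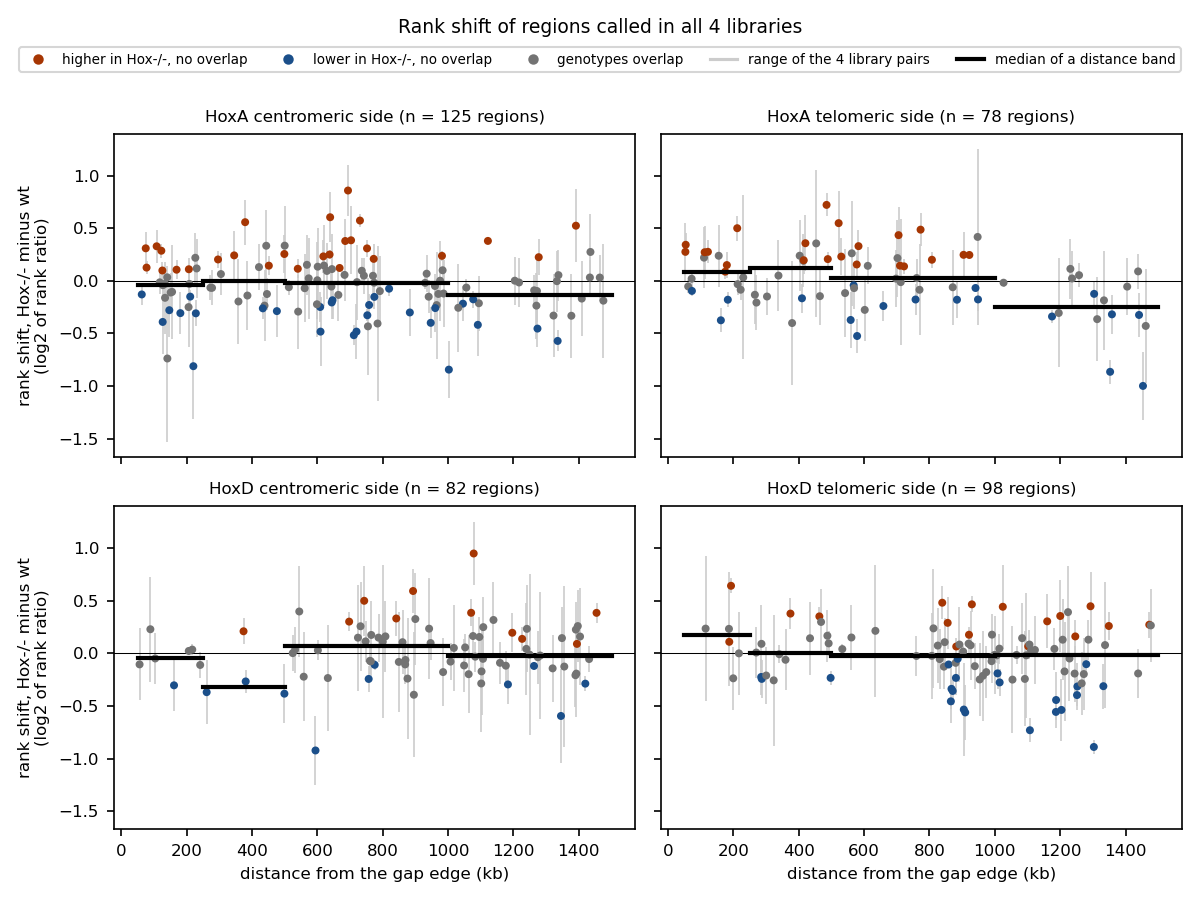
Rank shift (Hox-/- minus wt, log2) of the 383 flanking regions called in all 4 libraries against distance from the cluster (kb), by flank; vertical lines span the 4 differences between a Hox-/- and a wt library. Band medians over at least 10 regions run from −0.25, beyond 1000 kb on the telomeric side of HoxA, to 0.12, at 250 to 500 kb on that side, and the next lowest is −0.13, beyond 1000 kb on its centromeric side. The lowest of all, −0.32 at 250 to 500 kb on the centromeric side of HoxD, rests on 4 regions.

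The median shift of the members was −0.02, against 0.00 over all regions. It was −0.05 and 0.02 on the centromeric and telomeric sides of HoxA, and −0.01 on each side of HoxD. By distance, the medians over the flanks were 0.01 at 50 to 250 kb, 0.01 at 250 to 500 kb, 0.00 at 500 to 1000 kb and −0.05 beyond. On the centromeric side of HoxA beyond 1000 kb, 18 of 26 regions ranked lower in Hox-/- and 8 higher, where 50.8% of all regions ranked higher. The median of the 26 was −0.13. Without overlap 6 were lower (23.1%) and 3 higher (11.5%), beside the genome's 20.3% and 20.5%. On the telomeric side of HoxD at 50 to 250 kb, the median of 6 regions was 0.17. It came to 0.42 and 0.31 for Hox-/- replicate 1 against wt replicates 1 and 2, but to 0.03 and 0.02 for Hox-/- replicate 2, so 1 library set it apart from 0. For a pair of libraries, the median size of the difference in log rank over members was 0.187 for the wt pair and 0.197 for the Hox-/- pair. Between genotypes it ranged from 0.208 to 0.225, so the typical difference between genotypes was little larger than that between replicates.

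Most protein-coding promoters of the flanks were open in both genotypes. The flanks contain or touch 31 protein-coding genes, 27 of them with an annotated promoter inside, and 26 of these had a promoter region in all 4 libraries. Of 41 annotated promoters, 34 were overlapped in every library, or 82.9% (67.9% to 92.8%, exact 95% Clopper-Pearson interval), against 62.1% of 21263 in the genome. The share was not tested, since alternative promoters of 1 gene share a locus. Those without a region in all libraries were Chrna1, 1 promoter each of Jazf1 and Wipf1, and 4 of the 5 of Gm50595. The 34 promoters lay in 27 regions, and 10 of these ranked in the top 10% in every library. Between genotypes 6 promoter regions were higher in Hox-/- without overlap (Chn1, Ola1, Ttc30a2, Gm50595, Evx1 and Jazf1) (22.2% of 27, beside 20.5% of all regions) and 5 lower (18.5%, beside 20.3%; Ttc30a1, the downstream open promoter of Wipf1, Atp5g3, Hnrnpa3 and Atf2). The lowest adjusted p in limma among them was 0.392.

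Regions at gene ends had the higher median rank in each library, in the flanks and over the genome. Median ranks were 19.3%, 20.1%, 16.4% and 16.3% for 38 members against 57.4%, 56.4%, 58.3% and 59.4% for the 345 away from gene ends. Over the genome these medians were 26.0%, 25.6%, 25.1% and 25.9% against 53.6%, 53.6%, 53.7% and 53.5%. Of the 38, 12 ranked higher in both Hox-/- libraries and 5 lower, with a median shift of 0.07. At all gene ends of the genome 20.3% were higher and 17.6% lower without overlap, with a median of 0.02. The difference between the 38 and the other gene ends was not tested.

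**Figure D5:**
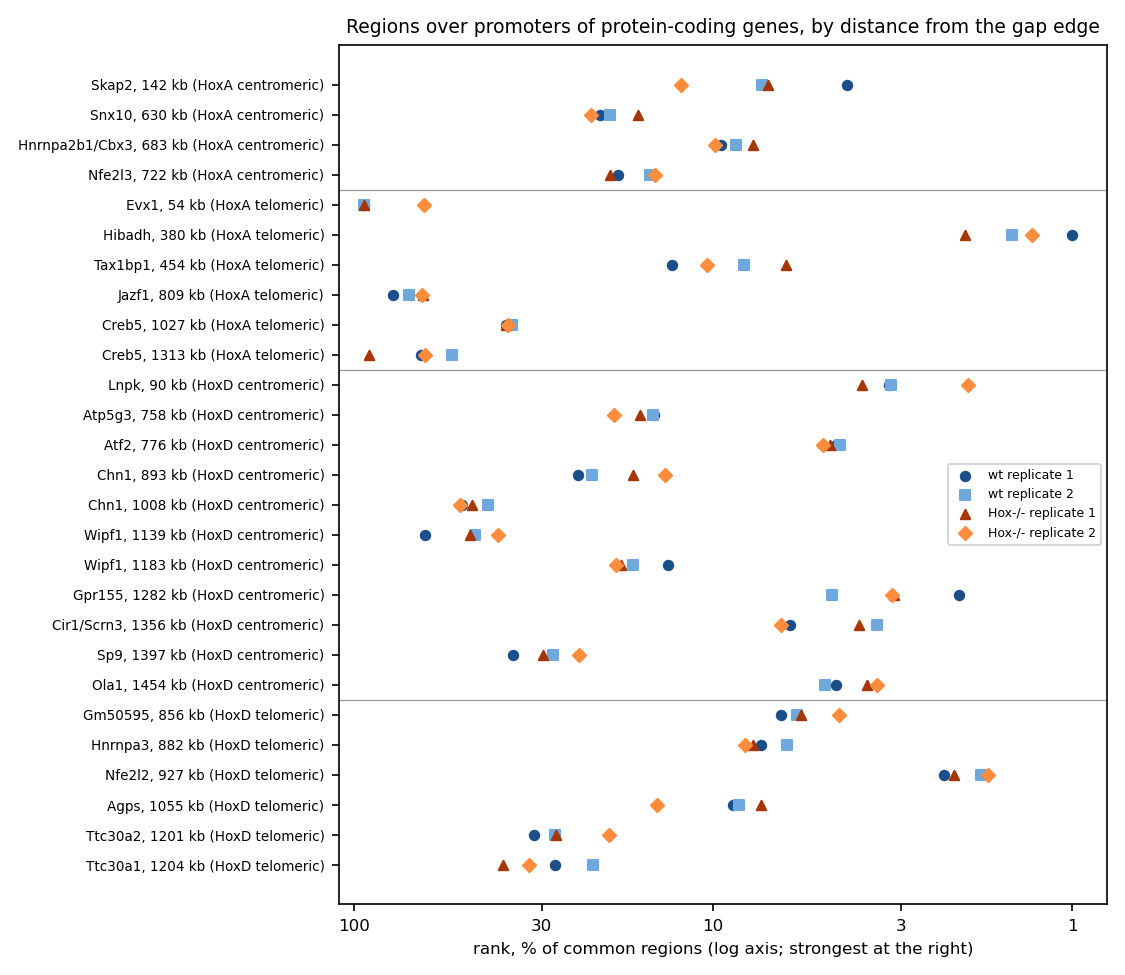
Rank of the 27 regions over protein-coding promoters in each library (percent, log axis, strongest at the right), ordered by distance from the cluster within each flank. Hibadh, Nfe2l2, Lnpk and Gpr155 are strongest and Evx1, Jazf1 and the downstream Creb5 promoter weakest, and the libraries of the genotypes intermingle at most genes.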

How the data were processed

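ATAC-seq peaks of 4 mouse embryonic stem cell libraries were analysed, 1 deposited list per library. Per the submitters' processing notes, cutadapt 4.8, Bowtie2 2.5.0, Picard 2.18.2, bedtools 2.30.0, MACS2 2.2.9.1 and deepTools 3.5.4 were used with mm10, and their settings are not given in the sources used here. Each line of the deposited lists gives an interval, the authors' fold over background (a ratio) at the summit and the −log10 p and −log10 q of the peak caller, which rank or describe peaks of that list only. In each deposited list −log10 q began at 1.30. No read counts are given, so depth is unknown. A background level was worked out for each peak from its fold and p together, and its 0.1% quantile compared between libraries.

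Peaks overlapping by at least 1 bp were merged over the libraries, and a library called a region where it had a peak. Ranks were fitted with limma 3.58.1 (R 4.3.3) on −log2(rank/n), with a variance trend and no covariates, and p-values were Benjamini-Hochberg adjusted over all 122787 regions. The trend was added because the fit without it recovered none of the changes made in simulated data. With the trend, most changes of the size seen in the flanks were still missed when tested on simulated data. Other values were computed in Python 3.11.15. Replicate numbers were not taken to pair libraries. Gene ends, names and promoters come from RefSeq (GRCm38.p6, the same chromosome coordinates as mm10), with promoter entries for 29 of 31 protein-coding genes. No genome sequence was used, so motifs were searched in promoters in place of the regions, and the promoters shown were chosen after their values were seen.

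The members and lists were chosen with earlier results of these data known. Regions were named by rule: in each flank, the 2 with the best worst rank and the one nearest the cluster; up to 6 in each direction called in both libraries of 1 genotype and neither of the other; and the 5 largest shifts without overlap in each direction. All protein-coding genes of the flanks could be named. The regions at Evx1os and inside Nfe2l3, and the weak one inside Creb5, were named after their values were seen. Alternatives tried were other thresholds, list lengths, overlaps, windows, scales and rank values, a replicate block, and leaving out each library. A result that needs a withheld item is not reported here.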

Additional observations from a re-analysis of the deposited data

How the results depend on the processing

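Alternatives were run for 5 summary results, 19 named regions and the median beyond 1000 kb telomeric of HoxA. Of 151 values, 124 kept their direction and call or stayed close, 13 moved and 14 changed sign. No named region passed in the main fit, so its values counted as kept where the sign held and it again did not pass. The replicate block cannot change the median shift, and that value was counted as kept. In limma, 0 flanking regions passed under every alternative except the replicate block, where 4 did (2 higher, 2 lower). Over the genome 34 of 122787 regions were higher and 14 lower in the main fit, against 580 and 613 with the block. These counts were 186 and 159 with normal scores, 10 and 2 without the trend and 0 by fold. With regions called in at least 2 libraries the balance was the other way, with 7 higher and 31 lower of 168980. Whether replicate numbers pair the libraries is not known, and the main fit did not pair them. The replicate differences of the genotypes correlated at 0.00402 over all regions and at −0.0673 over the members. The share kept from wt was 96.0% with lists of equal length and 84.2% when both Hox-/- libraries were required, and leaving out 1 library in turn gave 86.7% to 90.1%. The share kept from Hox-/- was 94.6% when both wt libraries were required, and 92.9% to 97.0% leaving out 1 library in turn. The difference in the share of peaks was −0.00201 percentage points without Hox-/- replicate 1, within a range of −0.00201 to 0.00745 leaving out each library. The median shift beyond 1000 kb telomeric of HoxA was −0.38 when ranked by fold, an alternative added after seeing the data.

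Leaving out each library in turn, the shift ranged from −0.24 to 0.24 at chr6:51178104-51178915, from −0.00188 to 0.62 at the Evx1 promoter and from −0.26 to 0.72 at the Lnpk promoter. It ranged from −0.34 to 0.11 at chr2:74612074-74612542, from −0.094 to 0.25 at the Nfe2l2 promoter and from −0.51 to 0.48 at chr2:75873799-75874464, inside Agps. Ranked by fold it was 0.13 at the Hibadh promoter, −0.27 at chr6:52871239-52871868 inside Jazf1 and 0.28 at the Agps region. The cause was not tested. With 2 libraries a genotype and no read counts, shifts as large as those seen in the flanks can go undetected.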
